A study of Mus musculus with 8 samples.

Results

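The killer cell lectin-like receptor (Klr) genes were followed through single-cell transcript counts of the mouse colonic lamina propria, the connective tissue layer beneath the gut epithelium. Members were all gene symbols of the count tables that begin with Klr, a letter from a to k and a digit, with Klrg1 left out. This rule found 25 of the 31053 rows: 11 Klra (Ly49) genes, 5 Klrb1 genes, 3 Klrc genes, 2 Klri genes, and Klrd1, Klre1, Klrk1 and Klrg2. The mice were C57BL/6 animals of 10 to 12 weeks kept pathogen-free, either wildtype or knock-in mutants with an amino acid exchange in RORgt, the lineage transcription factor of Th17 cells. The labels name this allele in more than one way, S203A in the sample titles and S182A or S182 elsewhere, and these mice are called the mutant here. Untreated mice drank plain water. Treated mice received dextran sulfate sodium (DSS), a chemical that damages the gut epithelium, at 2% of the drinking water over 7 days, followed by 3 days on plain water. Colons were taken on day 10, CD4+ cells were enriched with a magnetic kit, and each of the 4 groups held 2 libraries.

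These genes encode type II membrane receptors of the C-type lectin family, known from natural killer (NK) cells and also carried by some T cells and innate lymphoid cells. Klrd1 (CD94) forms heterodimers with the Klrc products, the inhibitory NKG2A (Klrc1) or the activating NKG2C (Klrc2), and both recognise the non-classical MHC class I molecule Qa-1, encoded by H2-T23. Klrk1 (NKG2D) is an activating receptor for stress-induced ligands and signals through the adaptor encoded by Hcst. The Klrb1 (NKR-P1) receptors recognise Clec2 proteins, and the Klra receptors recognise classical MHC class I. In the gut, NKG2D and NKG2A are best known from intraepithelial CD8 T cells and NK cells.

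In the GENCODE annotation of GRCm38, the build named in the submitters' processing notes as mm10, all 25 members are protein-coding genes of chromosome 6. Of these, 24 lie in 1 cluster of 2.64 Mb, from 128609227 to 131247362, and Klrg2 lies outside it at chr6:38625693-38637242. Klrk1 (chr6:129610323-129623864), Klrc3 (chr6:129639064-129643337), Klrc2 (chr6:129647496-129660689) and Klrc1 (chr6:129666015-129678973) follow each other on the minus strand. Klrd1 (chr6:129591782-129598775) stands next to them on the plus strand. The 250 bases before the RefSeq start of Klrc1, Klrc2 and Klrk1 (GRCm38.p6, minus strand, 5′ to 3′) are printed because the expression results turn on these genes: Klrc1 and Klrc2 rose and Klrk1 fell after DSS. Klrc2 has another listed start further downstream, whose 250 bases (chr6:129660557-129660806) are not printed. Capitals mark a RUNX motif, TGTGGT or its reverse complement ACCACA.
Klrc1, chr6:129678974-129679223: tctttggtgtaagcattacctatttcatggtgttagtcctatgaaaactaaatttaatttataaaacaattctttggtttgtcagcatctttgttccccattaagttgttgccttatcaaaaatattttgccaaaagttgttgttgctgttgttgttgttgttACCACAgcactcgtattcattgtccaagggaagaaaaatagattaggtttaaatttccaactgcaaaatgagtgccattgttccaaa
Klrc2, chr6:129660597-129660846: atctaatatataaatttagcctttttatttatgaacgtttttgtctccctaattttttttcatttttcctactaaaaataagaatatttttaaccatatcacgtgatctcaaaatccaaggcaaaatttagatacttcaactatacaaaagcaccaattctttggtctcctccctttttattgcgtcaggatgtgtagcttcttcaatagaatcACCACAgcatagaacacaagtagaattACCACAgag
Klrk1, chr6:129623865-129624114: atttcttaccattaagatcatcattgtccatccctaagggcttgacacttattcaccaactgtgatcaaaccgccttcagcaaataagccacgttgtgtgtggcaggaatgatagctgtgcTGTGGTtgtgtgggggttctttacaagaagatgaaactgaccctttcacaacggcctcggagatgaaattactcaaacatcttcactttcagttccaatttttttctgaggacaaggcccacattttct

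RefSeq promoter windows of 300 bases (250 before to 50 after the start) matched 23 of the 25 members with 28 windows. None was listed for Klrd1 or Klri2. The RUNX motif, searched on both strands, was found in 9 of the 28 member windows, belonging to Klra1, Klrb1a, Klrb1c, Klrc1, Klrc2, Klrc3, Klre1 and Klrk1, and in 16.8% of all 32851 windows. A T-box motif (AGGTGT) was found in 1 member window, that of Klrb1, and in 13.7% of all windows. An ROR half-site (AGGTCA) was found in 6 member windows, belonging to Klra10, Klrb1, Klrb1a, Klrb1b and Klrb1c, and in 16.3% of all. An ETS motif (AGGAAG) was found in 9 member windows and in 35.4% of all windows. These matches are letters in a window and do not show binding. The first listed window of each gene was aligned. Those of Klrc2 and Klrc3 were identical at 75.1% of 341 columns, gaps included, against 49.7% for Klrc1 and Klrc2 and 48.9% for Klrc1 and Klrk1. Klrc2 had another listed window further downstream (chr6:129660507-129660806), which was not aligned, so its values depend on the window chosen.

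Near-identical transcript ends limit some counts, since 3' libraries read only the ends. Of the 60-base windows in the last 500 bases of the annotated transcripts, 37.5% in Klrc1, 13% in Klrc2 and 17.9% in Klrc3 were shared with another Klrc gene. The same shares were 38.7% in Klra9, 32.4% in Klra10, 20.4% in Klrb1b and 16.2% in Klrb1c. No such window was shared for Klrk1, Klrd1, Klre1, Klrb1f, Klra2 or Klrg2. How the authors' counting handled reads from shared windows was not tested, so their effect on each Klrc value is not known. Klrb1c and Klrb1b also overlap the same-strand gene model Gm44511.

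The 8 libraries held 100673 barcodes and between 34497509 and 46960005 unique molecular identifiers (UMIs) each, where 1 UMI stands for 1 captured transcript. Levels are given as CPM, the UMIs of a gene scaled to a total of 1000000 UMIs in its population. Of 99487 barcode sequences, 1176 occurred in more than 1 library, 88 of them among the 27420 cells on the authors' list, all of which carried a Cd4 UMI. Listed cells in T cell clusters are called CD4 T cells here, 20698 cells with 1762 to 3746 per library. Clusters were made without any Klr gene and named from marker lists. The Treg-like cells (4164 cells, 228 to 1004 per library) showed the regulatory T cell gene Foxp3 at 371 CPM and no UMI of Ncr1 or Cd8a. Cd8b1 stood at 5.50 CPM in them (67 UMIs), against 3.26 in all CD4 T cells. The NK or ILC1-like barcodes (242, with 10 to 45 per library) showed Ncr1 at 84.3 CPM and the adaptor Tyrobp at 837 CPM. Other innate lymphoid populations were 560 ILC3-like and 92 ILC2-like barcodes. CD8 T cells were 396 unlisted T cell barcodes with a Cd8b1 UMI and no Cd4 UMI. They showed Cd8b1 at 499.6 CPM, Cd8a at 156 and also Foxp3 at 82.2, against 101 for Foxp3 in all CD4 T cells, and whether other T cells were among them was not tested. Because CD4+ cells were enriched, these barcodes are what passed the enrichment and not a sample of the tissue. Some clusters kept the names of their leading genes, such as the Ccl5-Eomes T cells, which stayed unnamed because they mixed markers of types.

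By UMIs, 9 of the 25 members reached the 100 UMIs over named lymphoid populations (15499 barcodes) that were set for a description by library. These were Klrb1b, Klrb1c, Klrb1f, Klrc1, Klrc2, Klrd1, Klre1, Klri2 and Klrk1. The lowest of them was Klre1 with 108 UMIs, and the highest of the other 16 was Klra2 with 31. All 9 had their highest level in the NK or ILC1-like barcodes. Since populations were defined from clusters of the same cells, levels across them are a description without a test, as the map of levels by gene and population shows.

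**Figure D1:**
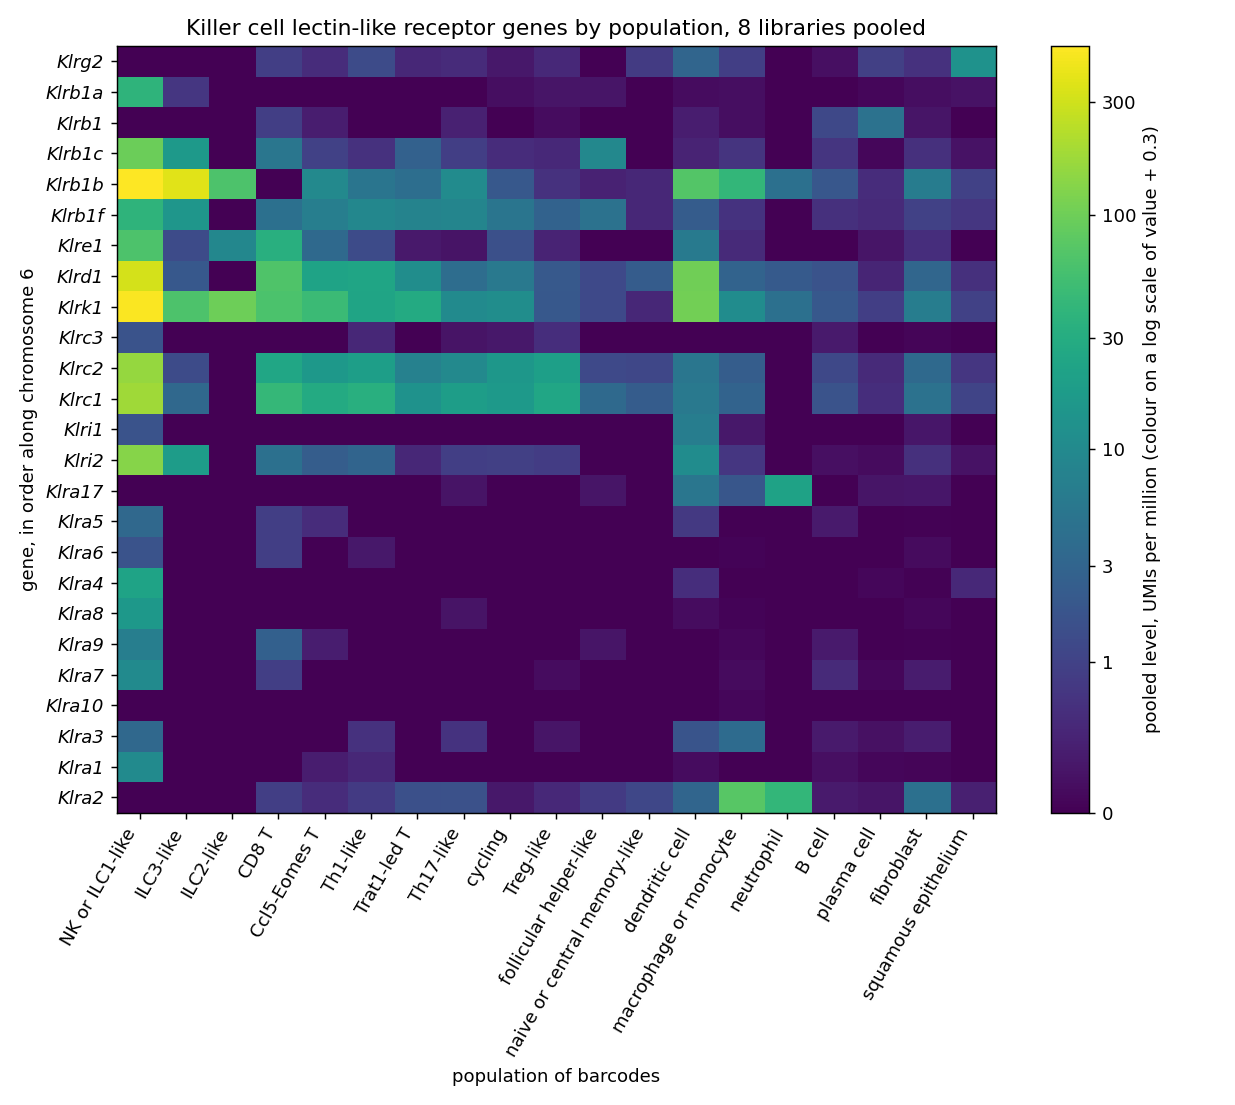
Pooled level of each of the 25 genes (rows, in order along chromosome 6) in each population (columns), in CPM with colour on a log scale. The NK or ILC1-like column is the highest for 18 of the 25 genes. In this small population 1 UMI is 1.72 CPM. Among the 18, Klrc3 and Klra6 rest on 1 UMI each there, Klra5 on 2, Klra9 on 4, and Klra7 and Klra1 on 6 each.

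Klrk1, the NKG2D gene, stood at 492 CPM in NK or ILC1-like barcodes, 404 in a small cluster mixing gamma-delta T and ILC3 genes, 107 in dendritic cells, 101 in ILC2-like, 65.2 in ILC3-like, 62.8 in CD8 T, 47.8 in Ccl5-Eomes T, 28.0 in Trat1-led T and 2.05 in Treg-like cells. In the NK or ILC1-like barcodes its level by library was 503 and 436 CPM in the untreated wildtype, 619 and 438 in the untreated mutant, 246 and 542 in the DSS-treated wildtype, and 406 and 578 in the DSS-treated mutant. The groups overlapped. Klrd1, the CD94 gene, stood at 325 CPM in NK or ILC1-like barcodes, 103 in dendritic cells, 66.3 in CD8 T, 23.5 in Th1-like, 22.3 in Ccl5-Eomes T and 2.14 in Treg-like cells.

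Klrc1 and Klrc2, the partners of CD94, were found in several T cell populations as well. Klrc1 stood at 177 CPM in NK or ILC1-like barcodes, 43.3 in CD8 T, 33.3 in Th1-like, 28.8 in Ccl5-Eomes T and 24.2 in Treg-like cells. Klrc2 stood at 162 CPM in NK or ILC1-like barcodes, 24.8 in CD8 T, 19.8 in Treg-like and 19.1 in Th1-like cells. These levels pool all libraries, and Klrc1 in Treg-like cells was 1.79 to 6.22 CPM in the untreated and 20.1 to 37.8 in the DSS-treated libraries. Klrc3 had 20 UMIs over all barcodes, 6 of them in Treg-like cells.

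Among the NKR-P1 genes, Klrb1b, an inhibitory receptor, stood at 518 CPM (301 UMIs) in NK or ILC1-like and at 374 CPM (551 UMIs) in ILC3-like barcodes, 69.5 in dendritic cells, 41.0 in macrophages or monocytes, and at no UMI in 396 CD8 T cells. A count of 0 among these cells allows a share with a UMI of up to 0.758%. Klrb1c, which encodes the NK1.1 antigen of C57BL/6 mice, stood at 96.4 CPM in NK or ILC1-like, 16.3 in ILC3-like and 9.5 in follicular helper-like cells. Klrb1f stood at 37.9 CPM in NK or ILC1-like barcodes, 27.5 in a small Ccl20-Il22 T cell cluster, 14.9 in ILC3-like and 8.66 in Th17-like cells. Klri2 and Klre1, which form a heterodimer, stood at 133 and 65.4 CPM in NK or ILC1-like barcodes. Klri2 stood at 42.0 CPM in the cluster mixing gamma-delta T and ILC3 genes and at 18.3 in ILC3-like barcodes, and Klre1 at 32.7 in CD8 T cells.

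The same genes were also read as shares of barcodes with a UMI. In NK or ILC1-like barcodes (median 2132 UMIs), 62.4% had a Klrb1b UMI, 60.3% Klrk1, 45.0% Klrd1, 30.2% Klrc1 and 26.9% Klrc2. After thinning each barcode to 1000 UMIs, which left out 14 of 242, these shares were 40.8%, 38.2%, 29.4%, 18.9% and 14.0%. In fibroblasts (median 5235 UMIs), which should lack these genes, the shares in the same order were 2.79%, 2.92%, 1.42%, 2.24% and 1.63%, and 0.520%, 0.430%, 0.280%, 0.340% and 0.220% with thinned counts. The dendritic cell shares, 40.6% for Klrk1 and 35.1% for Klrd1 at a median of 6133.5 UMIs, were 9.94% and 11.02% after thinning, above fibroblasts. In ILC3-like barcodes 57.3% had a Klrb1b UMI, or 30.8% after thinning.

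Klrc1 and Klrc2 were detected in the same cells more often than in others. Of 4164 Treg-like cells, 193 had a Klrc1 UMI, 158 a Klrc2 UMI and 80 both, so that 41.5% of the cells with Klrc1 had Klrc2, against 1.96% of the rest. Cells with Klrc1 were also deeper (median 4653 against 2365 UMIs), and shared transcript ends touch both genes. The part of these in the overlap was not tested. Klrd1 was found in 2.59% of the Treg-like cells with Klrc1 (5 cells) and in 0.378% of the rest. In CD8 T cells the corresponding shares were 34.2% and 12.6%, and in NK or ILC1-like barcodes 49.3% and 43.2%.

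The study's design compares DSS with no treatment and the mutant with the wildtype. UMIs were summed per library and population and tested with edgeR's quasi-likelihood test in each of 11 T cell and innate lymphoid populations that had at least 20 cells in every library. Non-lymphoid populations and clusters of mixed markers were left out of this test, and those with as many cells were tested in an alternative chosen after seeing the data, given further on. Nothing in the labels says whether a library is 1 animal, so p-values measure only the spread between these libraries. A low-count filter let 7 members into the test, in 23 pairs of a member and a population, and 18 members did not enter it. The filter keeps a gene that reaches its limit in as few as 2 libraries. Klrc1 and Klrc2 in Treg-like cells had few UMIs in the untreated libraries and passed it only through the DSS-treated ones. Klrc2 in cycling cells also passed only through the DSS-treated libraries, and Klrk1 in cycling cells only through the untreated ones. The direction of change of such pairs was largely fixed by how they entered. With the Benjamini-Hochberg adjustment over all genes of a population, 10 of the 23 pairs were called for DSS averaged over genotypes, where 9.99% of all gene and population pairs were called. In the mutant alone 6 were called, against 3.87% of all pairs, and in the wildtype alone 2, against 1% of all pairs. The 10 pairs were Klrc1 and Klrc2 (higher) in Treg-like, cycling and all CD4 T cells, Klrk1 (lower) in cycling, Trat1-led and all CD4 T cells, and Klrb1c (lower) in all CD4 T cells. Cells of the named subsets are also part of the CD4 T cells, so these pairs are not independent. Where treated and untreated libraries are said below not to overlap, the share of all genes that separate likewise was not counted.

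**Figure D2:**
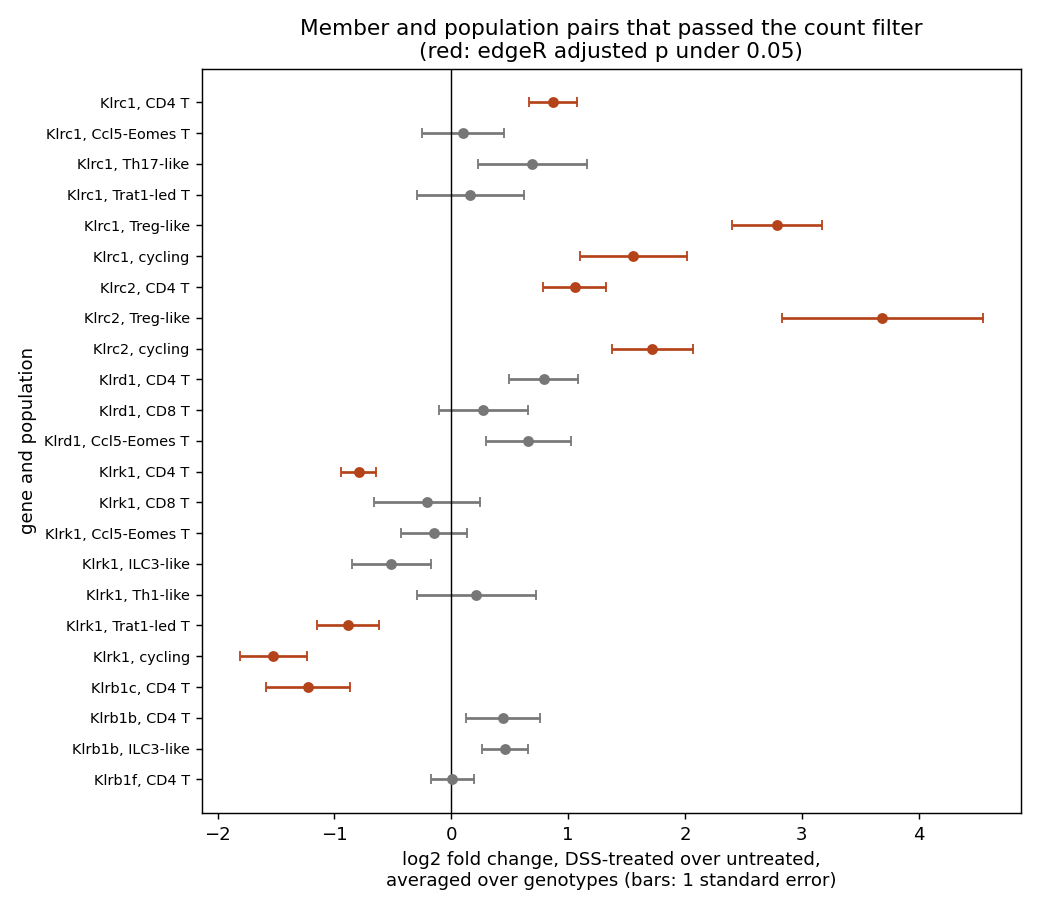
Log2 fold change of DSS-treated over untreated libraries, averaged over genotypes, for the 23 pairs tested, with bars of 1 standard error. Red points, with an adjusted p under 0.05, lie right of 0 for Klrc1 and Klrc2 and left of 0 for Klrk1 and Klrb1c.

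Klrc1 rose in Treg-like cells after DSS. Its level was 3.15 and 6.22 CPM in the untreated wildtype, 4.33 and 1.79 in the untreated mutant, 23.5 and 27.0 in the DSS-treated wildtype, and 20.1 and 37.8 in the DSS-treated mutant. All 4 DSS-treated libraries were above all 4 untreated ones. This direction was largely fixed by the low-count filter, which the pair passed only through the DSS-treated libraries. The group means were 4.69 ± 2.17, 3.06 ± 1.79, 25.2 ± 2.48 and 28.9 ± 12.6 CPM (SD, n = 2). The log2 fold change was 2.79 ± 0.39 (SE) averaged over genotypes (adjusted p = 8.41e-05), 2.37 ± 0.53 in the wildtype (0.0281) and 3.22 ± 0.56 in the mutant (0.00309). These are among 11% of genes called in this population for the averaged effect, 0.962% in the wildtype and 3.43% in the mutant. The untreated libraries rest on 1 to 4 Klrc1 UMIs each and the DSS-treated ones on 28 to 149, of which DSS-treated mutant replicate 2 gave 149. The averaged call held with each library left out in turn. Leaving out untreated wildtype replicate 1 ended the wildtype call (adjusted p = 0.229), as did leaving out untreated wildtype replicate 2 (0.288) or DSS-treated wildtype replicate 2 (0.145). The mutant call ended without untreated mutant replicate 1 (0.0522) or untreated mutant replicate 2 (0.0649).

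The share of Treg-like cells with a Klrc1 UMI was 0.880% in the untreated wildtype, 0.641% in the untreated mutant, 4.65% in the DSS-treated wildtype and 7.15% in the DSS-treated mutant. After thinning, which left out 34, 8, 40 and 22 cells, it was 0.187%, 0.217%, 1.33% and 1.92%. Fibroblasts gave 0.321%, 0.265%, 0.212% and 0.5998% in the same order, so the untreated Treg-like shares were at or below this background. Cells with Klrc1 or Klrc2 were 2 of 286, 4 of 282, 2 of 240 and 1 of 228 in the untreated libraries, and 42 of 794, 54 of 753, 24 of 577 and 142 of 1004 in the DSS-treated ones. These are 0.439% to 1.42% against 5.29%, 7.17%, 4.16% and 14.1%, without thinning. Among fibroblasts of DSS-treated mutant replicate 2, the library with the highest of these shares, 6.14% had a Klrc1 and 6.66% a Klrc2 UMI, against 1.35% to 2.51% and 0.360% to 1.66% in the other 7 libraries. In macrophages or monocytes Klrc1 was 0.980 to 2.02 CPM in the untreated and 1.83 to 8.14 CPM in the DSS-treated libraries, with the highest value in the same library, and its averaged log2 fold change of 1.28 ± 0.37 was called as well (adjusted p = 0.0200). The part of such background in the Treg-like values was not tested. Most lay in the Treg-like cluster led by Il10, which held 42, 52, 23 and 132 of them in the DSS-treated libraries. In that cluster Klrc1 was 4.14, 8.32, 5.57 and 2.28 CPM untreated and 33.2, 33.1, 25.3 and 48.4 CPM after DSS. In the Treg-like cluster led by Il1rl1 it was at no UMI in the untreated libraries and at 0 to 8.60 CPM after DSS.

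Markers of other cell types were read in the same Treg-like cells. Of the defining NK genes, Ncr1 had no UMI in any library, Eomes stood at 1.23 CPM, Prf1 at 2.22, Tyrobp at 9.53 and Txk at 147, against 633 for Txk in NK or ILC1-like barcodes. The summed level of the 13 NK or ILC1 markers was 1416 to 1724 CPM in the untreated wildtype and 1520 to 1524 in the untreated mutant, and 1091 to 1160 and 963 to 1087 after DSS. The summed 8 Treg markers were 4827 to 5093 CPM untreated and 4254 to 4616 after DSS. The summed 13 ILC3 markers were 694 to 925 CPM untreated and 874 to 1017 after DSS, and the summed 12 ILC2 markers 629 to 1015 and 845 to 1545, and their part in the Klrc1 values was not tested. The median UMIs of the Treg-like cells were 1856, 2259.5, 2382 and 2803 in the 4 groups.

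T cell barcodes that were not on the authors' list and had no UMI of Cd4, Cd8a or Cd8b1, called unlisted T barcodes here and chosen after seeing the data, gave a second set of Treg-like cells, 6464 barcodes. There Klrc1 was 0, 1.01, 3.38 and 3.22 CPM untreated, and 1.51 and 12.9 in the DSS-treated wildtype and 7.54 and 18.1 in the DSS-treated mutant. DSS-treated wildtype replicate 1 lay among the untreated libraries. The averaged log2 fold change was 2.70 ± 0.93, with an adjusted p of 0.0774, and neither the wildtype (3.58, 0.329) nor the mutant (1.83, 0.317) was called. Klrc2 in these barcodes changed by 2.55 ± 0.72 (adjusted p = 0.0253). The share of all genes called in these barcodes was not counted.

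Klrc2 also rose in Treg-like cells. Its level was 0 and 6.22 CPM in the untreated wildtype, 1.44 and 0 in the untreated mutant, 15.4 and 22.4 in the DSS-treated wildtype, and 10.7 and 35.8 in the DSS-treated mutant. The untreated values are 0 to 4 UMIs per library and the DSS-treated ones 15 to 141, and treated and untreated libraries did not overlap. As for Klrc1, this direction was largely fixed by how the pair passed the low-count filter. The fitted averaged log2 fold change was 3.69 ± 0.86 (adjusted p = 0.0286), a size that depends on the prior count because of the libraries at 0. Within genotypes it was not called (0.328 in the wildtype and 0.0895 in the mutant). The averaged call ended when untreated wildtype replicate 1 was left out (adjusted p = 0.053), and likewise for untreated mutant replicate 1 (0.131), untreated mutant replicate 2 (0.141) or DSS-treated wildtype replicate 2 (0.0664). Without untreated wildtype replicate 2, which held 4 of the 5 untreated UMIs, the value was 6.42.

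**Figure D3:**
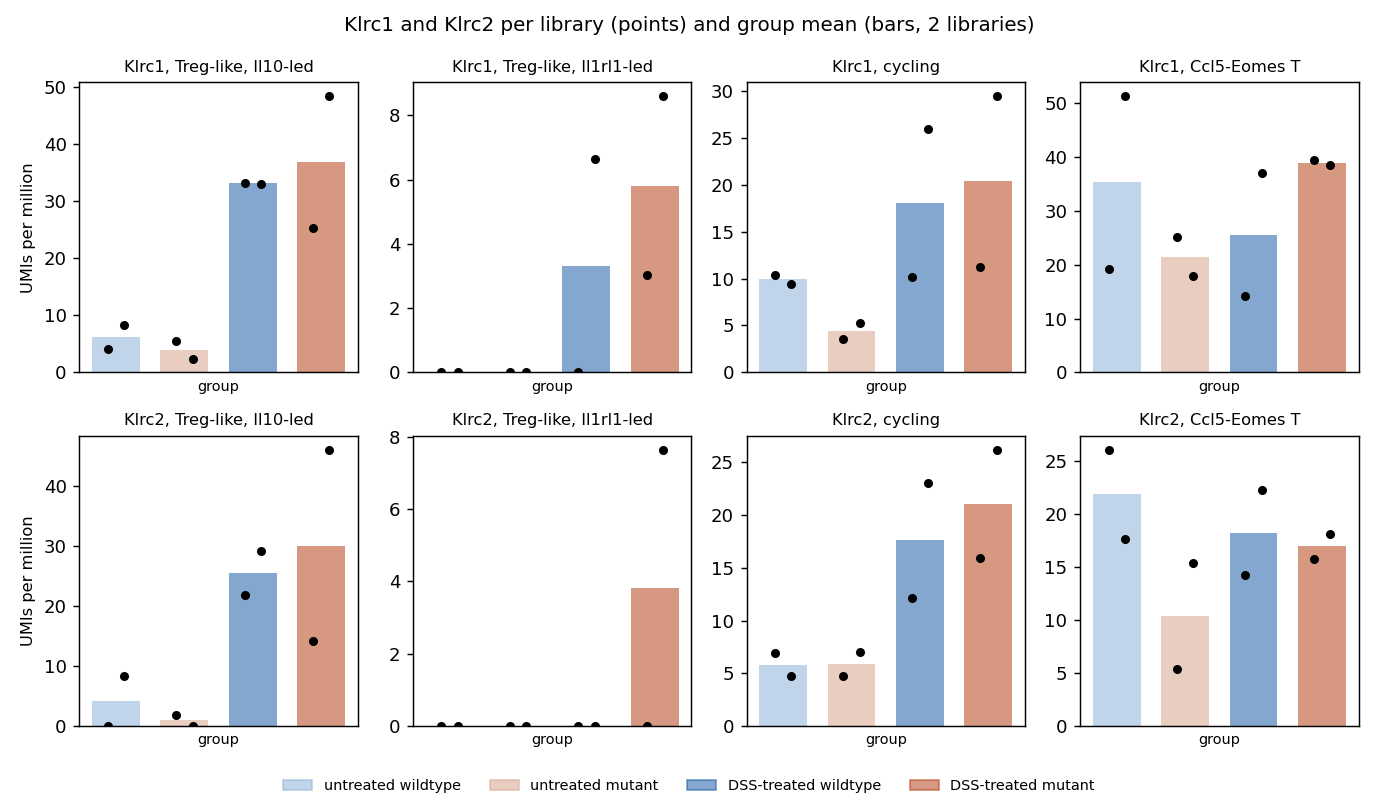
Klrc1 (upper row) and Klrc2 (lower row) in CPM by group in 4 T cell populations, with points for libraries and bars for the means of 2 libraries. In the Il10-led Treg-like cells every DSS-treated library lies above every untreated one for both genes, and in Ccl5-Eomes T cells the groups overlap.

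Over all CD4 T cells Klrc1 was 10.4 and 14.3 CPM in the untreated wildtype, 9.02 and 9.62 in the untreated mutant, 13.2 and 21.0 in the DSS-treated wildtype and 19.0 and 30.9 in the DSS-treated mutant. DSS-treated wildtype replicate 1 lay below the higher untreated library. DSS changed it by 0.87 ± 0.21 on the log2 scale (adjusted p = 0.0196, among 19.1% of genes called), and 1.36 ± 0.29 in the mutant (0.0321, among 7.35%). Klrc2 was 8.95 and 9.81, 4.43 and 5.71, 10.1 and 16.6, and 11.1 and 23.1 CPM in the same order, a log2 fold change of 1.06 ± 0.27 (0.0289) and of 1.69 ± 0.39 in the mutant (0.0411). Both averaged calls were lost without untreated wildtype replicate 1, untreated wildtype replicate 2, untreated mutant replicate 1, untreated mutant replicate 2 or DSS-treated wildtype replicate 2 in turn, with adjusted p from 0.0518 to 0.0757 for Klrc1 and from 0.0773 to 0.106 for Klrc2. Both mutant calls were lost without any 1 of the 4 untreated libraries, with adjusted p from 0.0519 to 0.172 for Klrc1 and from 0.0733 to 0.186 for Klrc2, and without DSS-treated mutant replicate 2 (0.107, and 0.115 with a log2 fold change of 1.05 for Klrc2). In the unlisted T barcodes neither gene was called: Klrc1 changed by 0.41 averaged (adjusted p = 0.402) and 1.01 in the mutant (0.204), and Klrc2 by 0.37 (0.322) and 0.84 (0.16). The fit of only the 4 mutant libraries also ended the mutant call of Klrc2 (0.0686). The DSS-treated library with more of both genes was replicate 2 in each genotype, where Th1-like cells were 23.1% and 22.5% of the CD4 T cells against 4.98% and 5.64% in replicate 1, and the part of this was not tested.

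Treg-like cells made up 13.4% and 13.3% of the CD4 T cells in the untreated wildtype, 13.6% and 10.7% in the untreated mutant, 25.4% and 26.1% in the DSS-treated wildtype and 20.7% and 26.8% in the DSS-treated mutant. They held 3.8% of the CD4 T cells' Klrc1 UMIs in the untreated wildtype and 3.4% in the untreated mutant, and 37.2% and 29.6% after DSS. For Klrc2 these shares were 3.3% and 1.5%, and 35.6% and 36.9%. Without the Treg-like cells, Klrc1 changed by 0.61 ± 0.22 (adjusted p = 0.0868) and Klrc2 by 0.73 ± 0.22 (0.0490). Sums over all CD4 T cells cannot tell more cells of a type from more RNA per cell.

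In cycling cells, a cluster defined by proliferation genes with 1409 cells, Klrc2 rose. Klrc2 passed the low-count filter here only through the DSS-treated libraries, which largely fixed this direction. Its level was 6.95 and 4.70 CPM in the untreated wildtype, 4.70 and 7.03 in the untreated mutant, 12.1 and 23.1 in the DSS-treated wildtype and 16.0 and 26.2 in the DSS-treated mutant, without overlap of treated and untreated libraries. The averaged log2 fold change was 1.72 ± 0.35 (adjusted p = 0.00171, among 10.8% of genes called), and 1.99 ± 0.50 in the mutant (0.0292, among 2.3%). Klrc1 was 10.4 and 9.40, 3.53 and 5.27, 10.1 and 25.9, and 11.3 and 29.4 CPM, where DSS-treated wildtype replicate 1 lay within the untreated range, with a log2 fold change of 1.56 ± 0.46 (0.0424). This call was lost without any 1 of the 4 untreated libraries (adjusted p from 0.118 to 0.244), without DSS-treated wildtype replicate 2 (0.0639) and without DSS-treated mutant replicate 2 (1.02, 0.174). The Klrc2 call in the mutant was lost without untreated mutant replicate 1 (0.321), untreated mutant replicate 2 (0.155) or DSS-treated mutant replicate 2 (0.371), and in a fit of only the 4 mutant libraries (0.0534). The share of cycling cells with a Klrc2 UMI was 2.87%, 2.17%, 9.77% and 10.9% in the 4 groups, whose median depth was 5156, 6316, 6795 and 7596 UMIs, against 1.5%, 0.652%, 1.46% and 3.61% of fibroblasts. With thinned counts it was 0.575%, 0 of 184 cells (which allows up to 1.63%), 0.503% and 1.47%, so in the wildtype the thinned share was not higher after DSS. For Klrc1 the shares were 4.30%, 3.26%, 9.02% and 14.0%, and the thinned ones 1.44%, 0 of 184, 1.26% and 2.94%. The part of depth and background in these values was not tested.

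In the unlisted T barcodes of the cycling cluster Klrc2 changed by -0.053 averaged (adjusted p = 0.98), -0.517 in the wildtype (0.875) and 0.41 in the mutant (0.904), none of them called. Among cycling cells the summed Treg markers were 1847 to 2101 CPM in untreated and 2285 to 2862 CPM in DSS-treated libraries, and the summed Th1 markers were 807 to 1387 and 427 to 720 CPM. Their part in the Klrc and Klrk1 values was not tested.

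Klrk1 moved the opposite way. In CD4 T cells it was 18.2 and 21.0 CPM in the untreated wildtype, 19.2 and 13.8 in the untreated mutant, 12.5 and 9.10 in the DSS-treated wildtype and 11.3 and 10.5 in the DSS-treated mutant. Every DSS-treated library was below every untreated one. The group means were 19.6 ± 1.96, 16.5 ± 3.79, 10.8 ± 2.43 and 10.9 ± 0.566 CPM (SD, n = 2). The averaged log2 fold change was -0.79 ± 0.15 (adjusted p = 0.00663), and within genotypes it was -0.91 ± 0.21 in the wildtype (0.0665, where 0.907% of genes were called) and -0.68 ± 0.21 in the mutant (0.0711), neither called. The averaged call held in all 16 alternatives computed, with adjusted p from 3.67e-06 to 0.0444, and without the Treg-like cells the value was -0.59 ± 0.15 (0.0241). Treated and untreated libraries overlapped without the Treg-like cells, with 15.8 CPM in DSS-treated wildtype replicate 1 and 14.9 in untreated mutant replicate 2. Klrk1 also fell in macrophages or monocytes (-1.23 ± 0.21, adjusted p = 0.00158), where it stood at 11.1 to 20.2 CPM untreated and 5.43 to 7.95 after DSS, and the part of background in the CD4 T cell values was not tested.

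In cycling cells Klrk1 was 16.5 and 18.8 CPM in the untreated wildtype, 29.4 and 15.8 in the untreated mutant, 7.08 and 5.77 in the DSS-treated wildtype and 8.46 and 7.12 in the DSS-treated mutant. Treated and untreated libraries did not overlap. Klrk1 passed the low-count filter here only through the untreated libraries, which largely fixed this direction. The averaged log2 fold change was -1.52 ± 0.29 (adjusted p = 0.000912), and it was -1.43 ± 0.42 in the wildtype (0.0496, among 3.79% of genes called) and -1.62 ± 0.40 in the mutant (0.0276). The averaged call held in all 13 alternatives that gave a value. The share of cycling cells with a Klrk1 UMI was 8.60%, 9.24%, 3.26% and 4.82% in the 4 groups, and 1.72%, 3.80%, 1.51% and 0.840% with thinned counts, against thinned shares of 0.508%, 0.498%, 0.212% and 0.327% in fibroblasts. The part of depth and background in the Klrk1 values was not tested. The mutant call was lost without untreated mutant replicate 1 (-1.08, 0.472) or DSS-treated mutant replicate 2 (0.23), and in a fit of only the 4 mutant libraries (0.0569). The wildtype call ended when untreated wildtype replicate 1 was left out (0.159), and likewise for untreated wildtype replicate 2 (0.263), untreated mutant replicate 1 (0.0564), DSS-treated wildtype replicate 1 (0.164) or DSS-treated wildtype replicate 2 (0.158), and with coarser clusters (0.0565).

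In the Trat1-led T cells, a cluster of no named type, Klrk1 was 43.2 and 30.2, 39.8 and 41.5, 25.5 and 23.3, and 22.2 and 15.3 CPM in the same group order, again without overlap of treated and untreated libraries. DSS changed it by -0.88 ± 0.27 on the log2 scale (adjusted p = 0.0296, among 8.56% of genes called). This call was lost when any 1 library other than DSS-treated mutant replicate 1 was left out, with adjusted p from 0.0509 to 0.181, and in the unlisted T barcodes (-0.48, 0.126). Klrk1 did not pass the test in the other populations where it was tested: the averaged log2 fold change was -0.15 ± 0.28 in Ccl5-Eomes T (0.772), -0.21 ± 0.45 in CD8 T (0.844), 0.22 ± 0.51 in Th1-like (0.839) and -0.51 ± 0.34 in ILC3-like cells (0.427). The Ccl5-Eomes T cells were 8.01% to 26.5% of the CD4 T cells in untreated libraries and 2.76% to 5.81% after DSS. They held 31.9% and 32.1% of the CD4 T cells' Klrk1 UMIs in the untreated wildtype and mutant, and 12.7% and 12.2% after DSS.

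**Figure D4:**
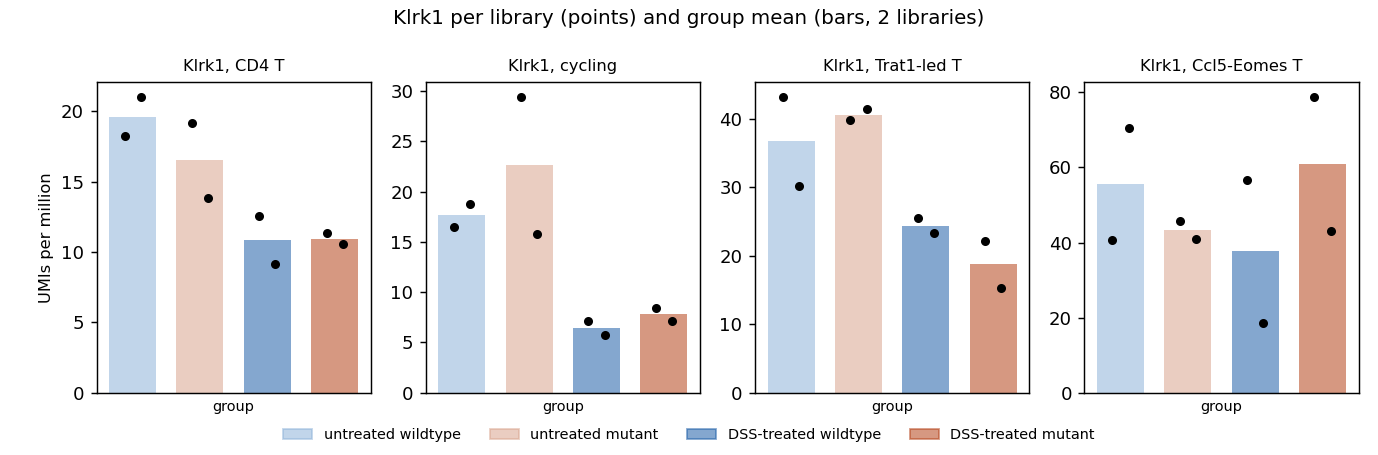
Klrk1 in CPM by group in CD4 T, cycling, Trat1-led T and Ccl5-Eomes T cells, with points for libraries and bars for the means of 2 libraries. The DSS-treated points lie below all untreated points in CD4 T, cycling and Trat1-led T cells. How many of all genes separate in this way was not counted.

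Klrb1c was rare in CD4 T cells, with 10 and 9 UMIs in the untreated wildtype, 24 and 27 in the untreated mutant, 21 and 9 in the DSS-treated wildtype and 8 and 7 in the DSS-treated mutant. These are 1.60 and 1.38, 3.94 and 4.06, 2.01 and 1.24, and 1.12 and 0.47 CPM. The untreated mutant libraries were the highest, and both wildtype groups overlapped. Averaged over genotypes its log2 fold change was -1.22 ± 0.36 (adjusted p = 0.0343) and that in the mutant -2.54 ± 0.49 (0.0209), against 0.10 ± 0.51 in the wildtype (0.941). The difference between genotypes in the effect of DSS was -2.64 ± 0.71 and was not called (unadjusted p = 0.00286, adjusted p = 0.9998). The averaged call was lost under DESeq2 (0.1), without the Treg-like cells (0.0729) and without any 1 of the 4 untreated libraries, DSS-treated wildtype replicate 2 or DSS-treated mutant replicate 2 (0.0832 to 0.13). The mutant call was lost without untreated mutant replicate 1 (0.107), untreated mutant replicate 2 (0.123) or DSS-treated mutant replicate 2 (-1.89, 0.11). In the unlisted T barcodes neither was called, with -0.34 averaged (0.535) and -1.12 in the mutant (0.145). Follicular helper-like cells held 68.4%, 45.1%, 63.3% and 40.0% of these UMIs in the 4 groups. They made up 9.17% and 12.98% of the CD4 T cells in the untreated wildtype, 16.3% and 22.4% in the untreated mutant, 10.96% and 11.27% in the DSS-treated wildtype and 8.61% and 9.34% in the DSS-treated mutant, so that the untreated mutant was highest here as for Klrb1c, and the part of this was not tested.

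Klrd1, which the Klrc products need as a partner at the cell surface, was 6.08 and 6.13 CPM in CD4 T cells of the untreated wildtype, 4.10 and 2.86 in the untreated mutant, 5.26 and 9.10 in the DSS-treated wildtype, and 5.88 and 13.4 in the DSS-treated mutant. The groups overlapped, and the averaged log2 fold change of 0.79 ± 0.29 was not called (adjusted p = 0.0862). It was called without DSS-treated mutant replicate 1 (1.01, 0.00803) and without the low-count filter (0.00148). In the unlisted T barcodes Klrd1 was called higher after DSS in the Trat1-led T cells, by 2.02 ± 0.47 averaged (0.00536) and 2.66 ± 0.71 in the mutant (0.0272). The share of all genes called in the unlisted T barcodes was not counted. Klrd1 was also called in their Ccl5-Eomes T cells, by 0.92 ± 0.25 averaged (0.0144) and 1.61 ± 0.35 in the mutant (0.00602), where the listed cells gave 0.66 ± 0.36 averaged (0.228). In Th1-like cells, where the filter left it out of the test, it had 3, 0, 0 and 0 UMIs in the untreated libraries and 11, 27, 4 and 78 in the DSS-treated ones. Th1-like cells were 2.50% to 5.76% of the CD4 T cells in the untreated libraries, 4.98% and 23.1% in the DSS-treated wildtype and 5.64% and 22.5% in the DSS-treated mutant, so the libraries differed in how many cells stand behind these counts.

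Klrb1b in ILC3-like barcodes was 328 and 261, 313 and 301, 443 and 364, and 392 and 561 CPM in the 4 groups. All treated libraries were above all untreated ones, but the averaged log2 fold change of 0.46 ± 0.19 was not called (adjusted p = 0.162, where 4.73% of genes were called). Klre1 had 0 to 11 UMIs per library in NK or ILC1-like barcodes, or 14.0 and 121, 115 and 75.7, 0 and 38.7, and 128 and 17.0 CPM in the 4 groups, which overlapped. Klrb1f in CD4 T cells lay between 4.45 and 6.39 CPM in all 8 libraries, with a log2 fold change of 0.01 ± 0.18 (0.979). The NK or ILC1-like barcodes fell under 20 in some libraries and were left out of the test. With the minimum lowered to 10 cells, a choice made after the counts were seen, 7 members were tested there and none was called in any of the 6 contrasts. The share of all genes called in these barcodes was not counted, so this cannot be read as a result about the members. The lowest adjusted p was 0.113, for Klri2, with 140 and 24.2, 57.6 and 75.7, 41.0 and 232, and 221 and 179 CPM in the 4 groups and an averaged log2 fold change of 1.17 ± 0.43.

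The 8 other populations with at least 20 cells in every library were tested as an alternative chosen after seeing the data. They held 29 pairs with a member, all in 5 of them (dendritic cells, macrophages or monocytes, fibroblasts, plasma cells and a T cell cluster of high UMI counts and mixed markers). For DSS averaged over genotypes 10 were called, 6 higher and 4 lower, where 13.8% of all gene and population pairs were called. In the mutant alone 2 were called (6.25% of all pairs), and in the wildtype alone 1 (1.37%). All 10 lay in dendritic cells (15.3% of genes called) and in macrophages or monocytes (25.8%), and none of the 7 pairs in fibroblasts was called, where 20.4% of genes were.

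In dendritic cells Klrd1 was 97.4 and 52.9 CPM in the untreated wildtype, 47.5 and 71.9 in the untreated mutant, 155 and 168 in the DSS-treated wildtype and 141 and 113 in the DSS-treated mutant. Every DSS-treated library was above every untreated one, and the averaged log2 fold change was 1.0 ± 0.19 (adjusted p = 0.00448). This call held with each library left out in turn. Klrb1b was 88.6 and 41.6, 33.3 and 42.0, 87.1 and 88.7, and 102 and 96.9 CPM in the same order, with an overlap at untreated wildtype replicate 1, and a log2 fold change of 0.82 ± 0.20 (0.0135) that was not called without untreated mutant replicate 1 (0.0762) or DSS-treated wildtype replicate 2 (0.0508). In the mutant it was 1.25 ± 0.29 (0.0281), a call that ended without any 1 of the 4 mutant libraries (0.0864 to 0.240). Klrc1 rose by 1.56 ± 0.45 (0.0243), a call that ended without untreated wildtype replicate 2, untreated mutant replicate 1, DSS-treated wildtype replicate 1 or DSS-treated mutant replicate 2 (0.0890 to 0.163). Klrk1 was not called there (-0.18 ± 0.13, 0.392).

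In macrophages or monocytes Klrk1 was 20.2 and 12.1 CPM in the untreated wildtype, 11.6 and 11.1 in the untreated mutant, 6.26 and 6.01 in the DSS-treated wildtype and 7.95 and 5.43 in the DSS-treated mutant. Treated and untreated libraries did not overlap, and the averaged call held with each library left out (0.000426 to 0.0122). The call in the wildtype (-1.53 ± 0.30, 0.0287) ended without any 1 of the 4 wildtype libraries or untreated mutant replicate 1 (0.0502 to 0.206). Klrb1b changed by -0.71 ± 0.20 (0.0258), a call lost without untreated wildtype replicate 1, either untreated mutant library, DSS-treated wildtype replicate 2 or DSS-treated mutant replicate 2 (0.0593 to 0.0959). The Klrc1 call was lost without either untreated wildtype library, untreated mutant replicate 1, DSS-treated wildtype replicate 2 or DSS-treated mutant replicate 2 (0.0596 to 0.154), and that in the mutant (2.02 ± 0.50, 0.0177) without untreated mutant replicate 1 or DSS-treated mutant replicate 2 (0.122 to 0.202). Klrc2 changed by 1.09 ± 0.37 (0.0428) and Klrd1 by 0.88 ± 0.31 (0.0499). The Klrc2 call was lost without any 1 library other than DSS-treated wildtype replicate 2 (0.0677 to 0.250), and the Klrd1 call without any 1 of the 8 (0.0566 to 0.189). Klrc1, Klrc2 and Klrd1 stood at 2.90, 2.39 and 2.90 CPM pooled there, against 4.68, 3.56 and 3.26 in fibroblasts.

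Markers of T cells were present in these barcodes too. The summed 8 T cell markers were 742 to 895 CPM untreated and 876 to 1507 after DSS in dendritic cells, and 281 to 383 and 391 to 597 in macrophages or monocytes, against 509 to 712 and 418 to 716 in fibroblasts. The summed 13 NK or ILC1 markers, which include the myeloid-expressed Tyrobp and Fcer1g, were 1550 to 1927 and 1712 to 2068 CPM in dendritic cells and 3642 to 4636 and 2911 to 3329 in macrophages or monocytes. Ncr1 had no UMI in dendritic cells and 1 in macrophages or monocytes. Their part in the member values was not tested.

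No member was called for the mutation. Of the 23 pairs, edgeR's quasi-likelihood test called 0 in untreated mice, where 0.0597% of all gene and population pairs were called and 2 member pairs had an unadjusted p under 0.05. It called 0 after DSS, where 0.00153% of all were called and 1 member pair had such a p, and 0 for the difference in the effect of DSS between genotypes, where 0.00306% were called and 3 had such a p. DESeq2 also called 0 in these contrasts, while the fit without the low-count filter called 1 pair for the difference between genotypes, Klrc2 in CD4 T cells. In the 8 other populations edgeR's test also called 0 of 29 pairs for the mutation in untreated mice, the mutation after DSS and the difference between genotypes (0.0384%, 0.00411% and 0.011% of all pairs called), with 6, 3 and 5 unadjusted p under 0.05. In Treg-like cells the mutant differed from the wildtype in Klrc1 by a log2 fold change of -0.57 ± 0.94 untreated and 0.29 ± 0.27 after DSS. In CD4 T cells Klrk1 differed by -0.25 ± 0.21 and -0.02 ± 0.21. The 2 pairs with an unadjusted p under 0.05 in untreated mice were Klrb1c in CD4 T cells, 1.42 ± 0.48 (unadjusted p = 0.0112, adjusted p = 0.757), and Klrd1 in CD8 T cells, -1.20 ± 0.56 (0.0385 and 0.902).

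Genes that work with these receptors were counted from lists of adaptors and signalling genes (15), ligands (15 of 20 were in the tables) and regulators of NK genes (12). For DSS averaged over genotypes, 6 adaptor tests were called higher and 4 lower of 115 tested over the 11 populations. Of the ligand tests 2 were called higher and 4 lower of 59, and of the regulator tests 7 higher and 11 lower of 96, against 9.99% of all pairs. None of the 3 lists had a call for the mutation or for the difference in the effect of DSS between genotypes.

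In the Treg-like cells none of the 12 adaptors tested was called. Tyrobp, which carries the signal of NKG2C, stood there at 9.53 CPM, against 837 in NK or ILC1-like barcodes, and Hcst, the NKG2D adaptor, at 282 against 444 CPM. Among the regulators, Id2, which restrains E proteins, went from 969 ± 94.7 and 873 ± 37.6 CPM untreated to 579 ± 8.0 and 552 ± 47.4 after DSS (SD over 2 libraries, wildtype before mutant), and its averaged log2 fold change was -0.74 ± 0.10 with an adjusted p of 6.51e-05. Nfil3 fell as well (-0.52 ± 0.10, 0.00211). Id2 was also called lower in CD4 T (-0.49 ± 0.09, 0.00663), cycling, Trat1-led T, Ccl5-Eomes T and Th1-like cells. Tbx21, the T-bet gene, fell in CD4 T (-0.83 ± 0.21, 0.0279) and cycling cells (-1.12 ± 0.29, 0.0166) and was not called in the Trat1-led T cells. The 7 regulator tests called higher were Ets1 in 5 populations (0.35 to 0.50, among them Th1-like and Ccl5-Eomes T cells), Runx3 in naive or central memory-like cells (0.71 ± 0.18, 0.0140) and Eomes in Ccl5-Eomes T cells, a cluster it helps to define.

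Of the ligands, H2-T23, which encodes the ligand of CD94 heterodimers, stood in Treg-like cells at 133 ± 12.0, 160 ± 11.8, 155 ± 14.2 and 153 ± 30.3 CPM in the 4 groups and was not called. Its highest pooled level was 231 CPM in endothelial cells. H2-K1, a classical class I gene read by Ly49 receptors, was called lower after DSS in Treg-like cells (-0.45 ± 0.11, adjusted p = 0.0126) and cycling cells (-0.65 ± 0.12, 0.000675), and H2-D1 likewise (-0.33 ± 0.10, 0.0425, and -0.40 ± 0.11, 0.0154). Clec2d, the ligand of the Klrb1b receptor, went from 48.3 ± 1.55 and 45.0 ± 0.117 CPM to 73.6 ± 3.55 and 64.0 ± 3.44 in CD4 T cells (0.48 ± 0.08, 0.00377) and was called higher in cycling cells. The NKG2D ligand Ulbp1 had its highest level in cycling cells, 22.1 CPM, and Raet1e stood at 0.0153 CPM in CD4 T cells and at 3.97 in squamous epithelium.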

How the data were processed

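The authors deposited 1 table of raw UMI counts per library and a list of kept cells without cell types. Per the submitters' processing notes, Cell Ranger 3.1.0, Seurat 4.0.1 and mm10 were used, and how the kept cells were chosen is not given in the sources used here. Barcodes with at least 400 genes and under 20% mitochondrial UMIs (96721) were clustered in scanpy 1.11.5 (Leiden, leidenalg 0.10.2, igraph 0.11.9, 2000 variable genes, 30 principal components, 15 neighbours, resolution 1) without Klr genes, and named from marker lists. Listed cells in T cell clusters entered as CD4 T cells, and innate and CD8 T barcodes came from all that passed the limits. No doublet caller was run.

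Counts were summed per library and population and tested with edgeR 4.0.16 (filterByExpr, TMM, robust quasi-likelihood fit over all 8 libraries with 4 group means), at an adjusted p under 0.05. In counts simulated for DSS averaged over genotypes, 200 genes with at least 200 UMIs were changed, and all genes had the same spread. The test recovered 97% of 2-fold and 100% of 4-fold changes in CD4 T cells (10942 genes tested). In Treg-like cells (7722 genes) it recovered 90% and 100%. Unchanged genes made up 4.83% and 3.55% of the calls. Klrb1c in CD4 T cells had fewer UMIs than this limit, and recovery at such counts was not simulated. Cycling and Trat1-led T cells, which also held called pairs, were not simulated. Lymphoid populations needed 20 cells in each library. Levels are CPM within a population, and intervals and limits from counts of 0 cover counting error only. All columns were mapped to samples. Alternatives were DESeq2 1.42.0, other size factors, no low-count filter, deeper cells, coarser clusters, added cells or populations, fewer libraries and each library left out.

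Members with at least 100 UMIs over the named lymphoid populations were described by library, or by their range, and called members were given with their statistics. The members, marker lists and pathway lists were chosen with earlier results of these data known. Promoters came from RefSeq, GRCm38.p6, and gene positions from the GENCODE annotation of GRCm38. Protein sequences were not used here.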

Additional observations from a re-analysis of the deposited data

How the results depend on the processing

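Counts of member and population pairs called for DSS averaged over genotypes, in the mutant and in the wildtype were 10, 6 and 2 of 23. They were the same with RLE size factors, with cells of at least 1000 UMIs, and (chosen after seeing the data) with only the Il10-led Treg-like cells. DESeq2 called 4, 3 and 0, with no adjusted p for some low-count pairs. Without the low-count filter more than 23 pairs were tested. Of these 15, 11 and 4 were called, and 1 for the difference between genotypes in the effect of DSS, Klrc2 in CD4 T cells. The other alternatives could also test other numbers of pairs than 23. Apart from the 8 other populations, the share of all pairs called was not counted for the alternatives. Coarser clusters gave 10, 7 and 1. A fit of only the 4 libraries compared gave 3 in the mutant. T barcodes without Cd4 or Cd8 UMIs, chosen after seeing the data and without a count of all pairs called, gave 4, 2 and 0. These were Klrc2 in Treg-like and Klrk1 in CD4 T cells, and Klrd1 in Trat1-led and Ccl5-Eomes T cells, pairs not called or not tested in the listed cells. With the 8 other populations added, also chosen after seeing the data, 20, 8 and 3 of 52 were called. With each library left out in turn the counts ranged from 4 to 12, 0 to 9 and 0 to 4, and from 0 to 0 for the mutation and the difference between genotypes. Where a group kept 1 library, its spread was taken from the others.

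Of 18 called member results, 192 of 273 alternatives kept direction and call, 80 kept the direction without the call, and 1 reversed. Klrc2 in cycling cells reversed under T barcodes without Cd4 or Cd8 UMIs, to -0.053 averaged over genotypes and -0.517 in the wildtype, where it had not been called, and the cause was not tested. No paired analysis was run. The titles carry numbers that no groups share, what these stand for is not stated, and replicate numbers only name libraries. Some of these numbers lie close together in a wildtype and a mutant library of the same treatment. Whether such libraries share spread was not tested. All contrasts, that of DSS averaged over genotypes among them, treat the libraries as unpaired and independent. With 2 libraries per group and 1 to 4 Klrc1 and 0 to 4 Klrc2 UMIs in untreated Treg-like libraries, fold sizes there are imprecise. The 11 members tested in no population cannot be read for DSS at this depth.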

Other observations

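Among members that the lymphoid description leaves out, Klra2, a Ly49 gene also known as Ly49B and known from myeloid cells, had its highest level in macrophages or monocytes. There it had 3162 UMIs, or 74.1 CPM pooled, against 41.4 CPM in neutrophils (19 UMIs) and no UMI in the NK or ILC1-like barcodes. Its macrophage or monocyte level was 78.4 and 75.8 CPM in the untreated wildtype, 89.0 and 72.8 in the untreated mutant, 71.0 and 62.9 in the DSS-treated wildtype, and 74.7 and 55.7 in the DSS-treated mutant. The groups overlapped. In the test of populations added after seeing the data its averaged log2 fold change was -0.42 ± 0.13 (edgeR, adjusted p = 0.0262), not called without either untreated wildtype library, untreated mutant replicate 1, DSS-treated wildtype replicate 2 or DSS-treated mutant replicate 2 (0.0631 to 0.111). Klra3 had 162 UMIs in the same cells (3.79 CPM), and Klra17 stood at 21.8 CPM in neutrophils (10 UMIs) and 5.38 in dendritic cells (66 UMIs). Klri1, which can pair with Klre1, had 83 UMIs in dendritic cells (6.77 CPM) and 1 in the named lymphoid populations. Its averaged log2 fold change in dendritic cells was -1.41 ± 0.47 (edgeR, adjusted p = 0.0490), not called without any 1 library other than DSS-treated mutant replicate 1. With each library left out in turn the value ran from -4.17 to -1.04.

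The remaining Ly49 genes were sparse. In NK or ILC1-like barcodes Klra4 stood at 22.4 CPM, Klra8 at 15.5, Klra7 and Klra1 at 10.3 and Klra9 at 6.89, and Klra10 had 3 UMIs over all barcodes. Klrb1a stood at 37.9 CPM there (22 UMIs). Klrg2 was highest in squamous epithelium (97 UMIs, 13.3 CPM) and Klrb1 in plasma cells (122 UMIs, 4.75 CPM). Levels across populations come from clusters of the same cells and were not tested.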
